A study of Mus musculus with 48 samples.

Results

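The genes described here are 36 mouse genes for subunits of glutamate and GABA receptors, taken by gene name from the 48795 genes in the count and FPKM tables. They comprise 4 AMPA, 7 NMDA, 6 kainate and delta, 7 metabotropic glutamate, 10 GABA-A and 2 GABA-B receptor genes. Of the 36, 34 passed the filter on low counts, as did 20010 genes in all. The 48 libraries are RNA of mouse cerebral cortex at 6 months of age, 1 per animal, on a background labelled C57BL/6. The mice were 8 Q140 x Msh3-/-, 8 Q140 x Msh3+/-, 8 Q140, 8 Msh3-/-, 9 Msh3+/- and 7 wild type (WT) animals, with 4 males and 4 females in each group except Msh3+/- (4 males, 5 females) and WT (4 males, 3 females). Q140, a mouse model of Huntington's disease, is a knock-in of an expanded CAG repeat in the huntingtin gene Htt and was carried on 1 allele. Msh3 encodes a DNA mismatch repair protein, and the labels give the nature of the altered Msh3 allele only as +/- or -/-.

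Glutamate is the main excitatory and GABA the main inhibitory transmitter of the cortex. AMPA, NMDA and kainate receptors are tetrameric cation channels opened by glutamate, GABA-A receptors are pentameric chloride channels, and the metabotropic glutamate and GABA-B receptors signal through G proteins. Which subunits are assembled sets the kinetics, calcium permeability and placement of a receptor. In cortical tissue these RNAs come mostly from excitatory projection neurons and interneurons, and some, such as Grm3, also from astrocytes.

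Several facts on the libraries bear on what follows. Library totals lay between 35.95 and 64.48 M counts. Msh3 itself had 99.1 to 125 CPM (TMM-scaled counts per M counts of the library) in the 16 mice labelled Msh3-/-, 61.2 to 77.4 CPM in the 17 labelled Msh3+/- and 21.8 to 25.9 CPM in the 15 without an altered allele, which goes against a loss of its RNA; the names Msh3-/- and Msh3+/- stand for the labels only. Htt lay between 225 and 257 CPM in Q140 carriers and between 225 and 259 CPM in non-carriers. Abhd1, which marks most Q140-labelled libraries here, was at 5.23 to 7.66 CPM in 20 of them and at 2.62 to 3.63 CPM in the other 4 (3 Q140 x Msh3-/- and 1 Q140 x Msh3+/-), against 2.15 to 3.61 CPM in non-carriers. Markers of excitatory neurons, inhibitory neurons, astrocytes and oligodendrocytes were all detected in every group, with none of the listed markers at 0 in all mice, while the summed choroid plexus markers ranged between 0.896 and 899 FPKM. Of the summed oligodendrocyte markers the range was 179 to 351 FPKM and of the inhibitory neuron markers 335 to 412 FPKM. In bulk tissue, fewer cells of a type and less RNA per cell cannot be told apart.

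Levels of the subunit RNAs differed widely between genes and, for most of them, little between mice. Between genes, levels are compared as FPKM, which by definition divides the read count by gene length and library total. The gene lengths behind the deposited values were not checked. Median FPKM over the 48 mice was above 10 for 23 genes, between 1 and 10 for 10 genes and below 1 for 3 genes. The order of the medians was the same when the library totals were rescaled by TMM. With TMM factors between 0.98 and 1.017 it could hardly have changed. The biological coefficient of variation, edgeR's estimate of the relative spread between mice beyond counting noise, had a median of 0.064 over the 34 tested members and of 0.086 over all tested genes, and 24 of the 34 lay below the median over all genes. The members and all genes were not matched for level in these medians. Among the 1846 genes within 0.5 log2 units of the level of Gabra2, the median coefficient was 0.05, below that of the members. The coefficient exceeded 0.1 for 6 members, at 0.311 for Grin3b, 0.223 for Gabra2, 0.158 for Grm8, 0.133 for Grm2, 0.117 for Grik3 and 0.116 for Gabra5.

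**Figure D1:**
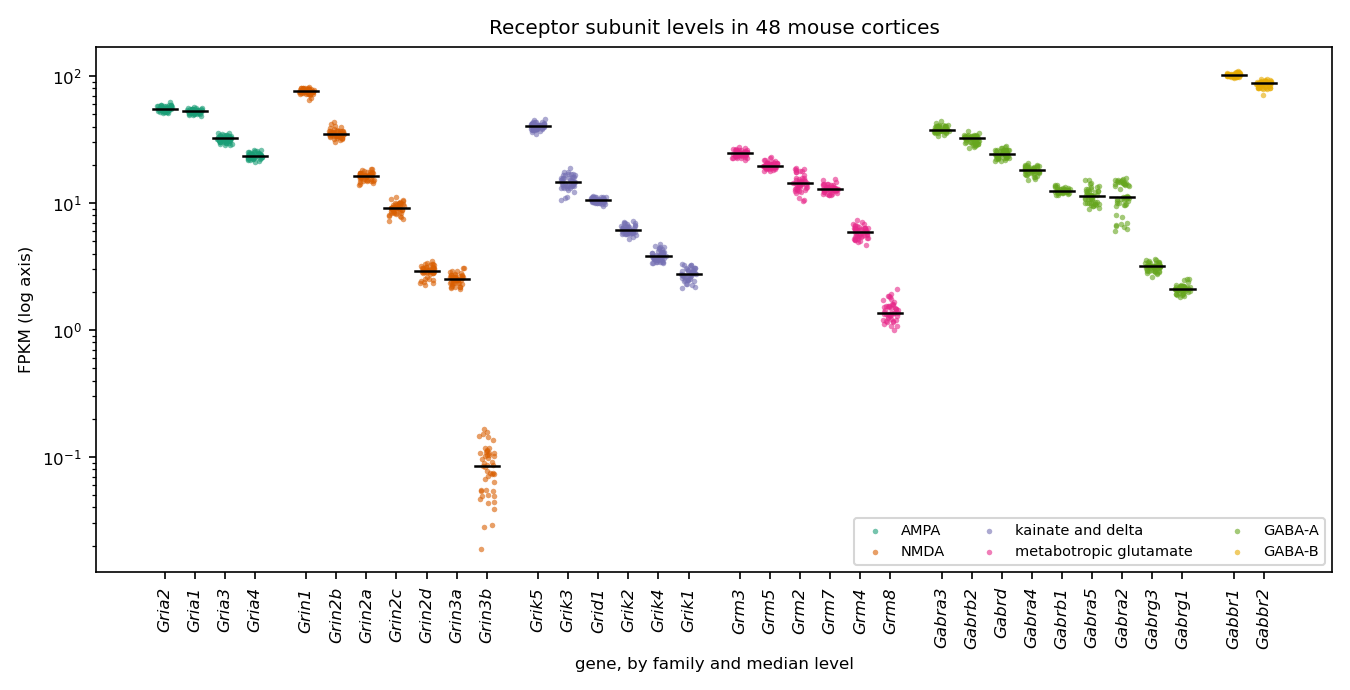
Deposited FPKM (log axis) of the 34 tested subunit genes, 1 point per mouse and 48 mice per gene, coloured by receptor family, with the median as a bar. Gabbr1 (median 102) stood highest and Grin3b (median 0.0853) lowest, and Gabra2 had a wider spread than its neighbours in level.

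Among the AMPA receptor genes, Gria2 and Gria1 were the most abundant, with medians of 55.4 and 53.0 FPKM, followed by Gria3 at 32.2 and Gria4 at 23.5 FPKM. Gria2 encodes the subunit whose RNA editing makes the channel impermeable to calcium. Gria2 had 51.8, 56.0 and 59.6 FPKM (lowest, median, highest) in the 24 Q140 carriers and 51.6, 54.9 and 62.4 FPKM in the 24 non-carriers, so the ranges overlapped, with a higher upper end in non-carriers. Its median by genotype was highest in Q140 x Msh3-/- mice at 881 CPM and lowest in Msh3-/- mice at 845 CPM. As shares of the summed FPKM of the 4 genes, Gria2 made up 33.9% ± 0.829, Gria1 32.2% ± 1.19, Gria3 19.5% ± 0.674 and Gria4 14.4% ± 0.627 (SD, n = 48). The Gria2 share ranged only between 32.4% and 35.9% over all mice, and its mean was 34.3% ± 0.941 in Q140 x Msh3-/-, 34.3% ± 0.920 in Q140 x Msh3+/-, 33.6% ± 0.684 in Q140, 33.4% ± 0.418 in Msh3-/-, 34.2% ± 0.819 in Msh3+/- and 33.5% ± 0.726 in WT mice.

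Of the NMDA receptor genes, Grin1, the obligatory glycine-binding subunit, had the highest level. It was measured at 64.4, 76.8 and 81.1 FPKM (lowest, median, highest) in Q140 carriers and at 67.6, 75.2 and 81.5 FPKM in non-carriers. Grin2b and Grin2a, the main glutamate-binding subunits of the forebrain, followed with medians of 35.1 and 16.4 FPKM, then Grin2c with 9.11, Grin2d with 2.93, Grin3a with 2.51 and Grin3b with 0.0853 FPKM. Grin3b, a glycine-binding subunit known best from motor neurons, was counted in all 48 mice but with only 3 to 26 reads per library, which limits what its tests can show.

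Grin2b is the subunit that predominates early in development and Grin2a the one that rises as the forebrain matures. The Grin2a to Grin2b ratio of FPKM lay between 0.391 and 0.512 over all mice. Its mean was 0.467 ± 0.0241 in Q140 x Msh3-/-, 0.474 ± 0.0229 in Q140 x Msh3+/-, 0.440 ± 0.0320 in Q140, 0.458 ± 0.0239 in Msh3-/-, 0.483 ± 0.0240 in Msh3+/- and 0.442 ± 0.0318 in WT mice (SD over the 8, 8, 8, 8, 9 and 7 mice). All 6 ranges overlapped. Grin2a itself had 258, 290 and 315 CPM in Q140 x Msh3-/-, 266, 296 and 315 in Q140 x Msh3+/-, 264, 284 and 312 in Q140, 267, 297 and 331 in Msh3-/-, 277, 301 and 336 in Msh3+/- and 245, 281 and 323 in WT mice (lowest, median, highest). Grin2b had 795, 841 and 972 CPM in Q140 x Msh3-/-, 811, 866 and 896 in Q140 x Msh3+/-, 793, 867 and 1016 in Q140, 799, 902 and 1078 in Msh3-/-, 754, 882 and 1040 in Msh3+/- and 813, 900 and 927 in WT mice. For both genes the groups overlapped, and no group stood apart.

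The kainate and delta family was led by Grik5, whose product needs a partner subunit to form a working kainate receptor. Grik5 had 35.96, 40.9 and 45.2 FPKM (lowest, median, highest) in Q140 carriers and 34.9, 39.9 and 45.9 FPKM in non-carriers. Its companion of the same high-affinity class, Grik4, had a median of 3.81 FPKM, and the low-affinity subunits Grik3, Grik2 and Grik1 had 14.6, 6.08 and 2.76 FPKM. Grid1, a delta receptor subunit that binds cerebellins and organises synapses, had 10.5 FPKM and one of the smallest spreads of the set, with a coefficient of 0.04.

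For the metabotropic glutamate receptors, the order was Grm3 (24.6 FPKM), Grm5 (19.7), Grm2 (14.4), Grm7 (12.9), Grm4 (5.94) and Grm8 (1.37). Grm5 couples to phospholipase C, whereas Grm2 and Grm3 and, in another group, Grm4, Grm6, Grm7 and Grm8 inhibit adenylyl cyclase. Grm3, found in neurons and astrocytes, had 21.9, 24.2 and 27.1 FPKM (lowest, median, highest) in Q140 carriers and 22.5, 24.8 and 27.7 FPKM in non-carriers. Grm6, the receptor of retinal ON bipolar cells, had at most 2 reads in a library, was counted in 14 of 48 mice and did not pass the filter.

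The GABA-A receptor genes ranged between Gabra3, an alpha subunit, with a median of 37.8 FPKM, and Gabrg1, a gamma subunit, with 2.12 FPKM. Gabra3 had 34.3, 37.8 and 42.5 FPKM (lowest, median, highest) in Q140 carriers and 33.95, 37.9 and 44.4 FPKM in non-carriers. Between them lay the beta subunit gene Gabrb2 (32.3 FPKM), Gabrd (24.5), whose product replaces a gamma subunit in extrasynaptic receptors, Gabra4 (18.2), often assembled with it, Gabrb1 (12.4), Gabra5 (11.3), Gabra2 (11.2) and Gabrg3 (3.18). Gabra6, which marks cerebellar granule cells, had at most 6 reads in a library, was counted in 20 of 48 mice and did not pass the filter. The GABA-B receptor is a dimer in which the Gabbr1 product binds GABA and the Gabbr2 product couples to the G protein. Gabbr1 had the highest level of all members, with 95.8, 102 and 109 FPKM in Q140 carriers and 98.0, 102 and 110 FPKM in non-carriers, and Gabbr2 followed with a median of 87.6 FPKM.

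The members' genes lie on many chromosomes, but 4 of the GABA-A genes, Gabrg1, Gabra2, Gabra4 and Gabrb1, form a cluster on chromosome 5, with Gabra2 36.2 Mb from Htt on GRCm38. The start regions of these 4 neighbours are shown because 1 of them, Gabra2, varied far more between mice than the others. The sequences are from RefSeq (GRCm38.p6), run 5′ to 3′ on the strand of the gene, and span 300 bases around the annotated start. Capitals mark the CAAT box letters CCAAT or their reverse complement ATTGG.
Gabrg1 (chr5:70842568-70842867, minus strand): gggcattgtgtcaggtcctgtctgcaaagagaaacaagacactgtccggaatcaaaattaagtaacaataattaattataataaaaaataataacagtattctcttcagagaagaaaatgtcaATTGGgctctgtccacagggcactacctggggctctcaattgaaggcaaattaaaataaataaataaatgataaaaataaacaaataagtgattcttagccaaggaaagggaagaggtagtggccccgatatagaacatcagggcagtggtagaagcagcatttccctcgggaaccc
Gabra2 (chr5:71095800-71096099, minus strand): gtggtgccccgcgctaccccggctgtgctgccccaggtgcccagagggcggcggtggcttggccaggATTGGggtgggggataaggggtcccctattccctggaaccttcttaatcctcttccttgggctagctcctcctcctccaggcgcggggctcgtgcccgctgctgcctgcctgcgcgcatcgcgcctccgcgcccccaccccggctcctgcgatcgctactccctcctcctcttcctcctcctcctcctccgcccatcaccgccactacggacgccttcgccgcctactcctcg
Gabra4 (chr5:71658259-71658558, minus strand): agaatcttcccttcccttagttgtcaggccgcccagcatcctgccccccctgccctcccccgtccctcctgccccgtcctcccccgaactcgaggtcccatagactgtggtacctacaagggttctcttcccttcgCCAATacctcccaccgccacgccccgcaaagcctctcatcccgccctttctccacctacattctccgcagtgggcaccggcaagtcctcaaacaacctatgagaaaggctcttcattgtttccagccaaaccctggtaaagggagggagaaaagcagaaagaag
Gabrb1 (chr5:71657671-71657970, plus strand): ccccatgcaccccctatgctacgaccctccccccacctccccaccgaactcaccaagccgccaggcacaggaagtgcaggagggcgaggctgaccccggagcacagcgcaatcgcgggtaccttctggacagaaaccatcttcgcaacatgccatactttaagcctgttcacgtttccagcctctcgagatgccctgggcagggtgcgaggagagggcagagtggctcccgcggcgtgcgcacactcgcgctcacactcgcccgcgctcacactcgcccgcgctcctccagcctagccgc
The CAAT letters stood in the windows of Gabrg1, Gabra2 and Gabra4. They did not stand in that of Gabrb1, nor in another Gabrb1 window (chr5:71699682-71699981), which is not printed. They were held, on either strand, by 37.41% of all 32851 promoter windows, and by 13 of the 33 windows of the 26 members that could be matched. TATAAA stood in 4 of the 33 windows and in 13.62% of all windows, and the cAMP response element TGACGTCA in 0 of the 33 and in 1.79% of all. The windows differed in base composition, with 38.3% G and C in Gabrg1, 70.0% in Gabra2 and 58.7% in Gabra4. The printed Gabrb1 window had 66.0% and the other Gabrb1 window 50.3%, beside a median of 52.7% over all windows. Such letter matches describe the windows only. The gene bodies of Gabra4 and Gabrb1, on opposite strands, overlap by 196 bases, and whether counting used the strand is not given in the sources used here.

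Gabra2 encodes an alpha subunit of synaptic GABA-A receptors (chr5:70957597-71095849, minus strand). In Q140 x Msh3-/- mice it had 45.9, 51.5 and 112 CPM (lowest, median, highest), in Q140 x Msh3+/- mice 51.2, 93.1 and 118 CPM and in Q140 mice 52.2, 79.8 and 111 CPM. In Msh3-/- mice it had 74.5, 85.5 and 109 CPM, in Msh3+/- mice 75.1, 112 and 119 CPM and in WT mice 77.8, 104 and 112 CPM. The groups overlapped at the upper end, and values under 74.5 CPM occurred only in Q140 carriers.

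The distribution of Gabra2 was looked at after its values had been seen. Ordered over the 48 mice, the widest step between neighbours lay between 60.7 and 73.1 CPM, 0.27 on the log2 scale, beside 0.15 for the next widest and 0.01 for the median step. Below that step were 6 of 8 Q140 x Msh3-/-, 2 of 8 Q140 x Msh3+/- and 1 of 8 Q140 mice, and 0 of 24 non-carriers. They comprised 4 males and 5 females. Of 1846 genes within 0.5 log2 units of its level, 99.7% had a smaller coefficient of variation than the 0.223 of Gabra2, with a median of 0.05. Its neighbours on the chromosome had 0.063 (Gabrg1), 0.064 (Gabra4) and 0.045 (Gabrb1). The library with the fewest Gabra2 reads held 2190. As background, substrains of C57BL/6 mice are known to carry different Gabra2 alleles with different RNA levels, and the labels do not name the substrain.

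**Figure D2:**
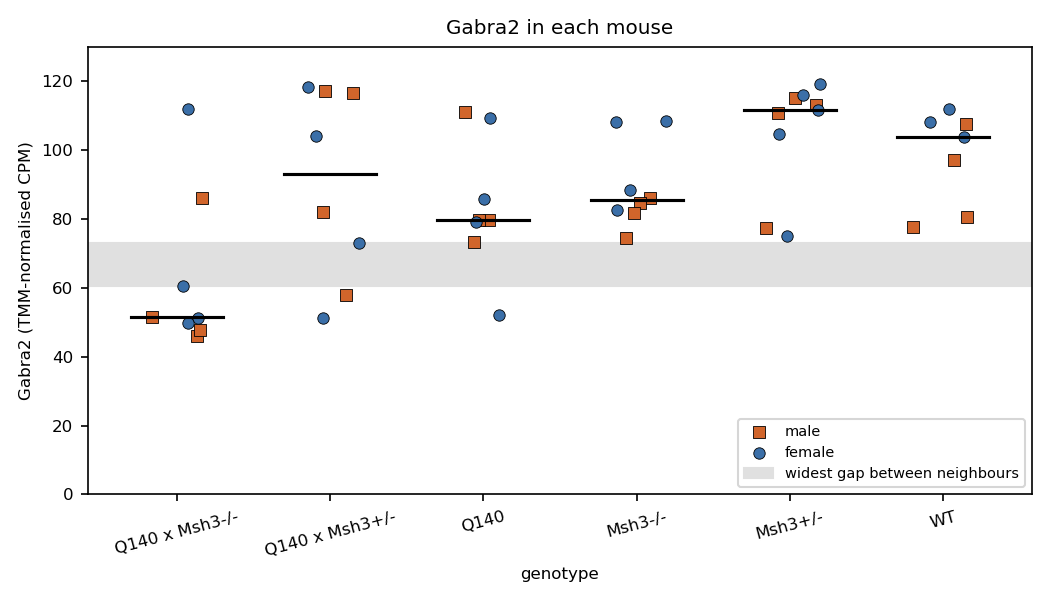
Gabra2 in TMM-normalised CPM in each mouse, by genotype, with squares for males, circles for females, a bar at the group median and a grey band over the widest step between neighbouring values (60.7 to 73.1 CPM). The 9 mice below the band are all Q140 carriers, 6 of them Q140 x Msh3-/-.

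In the model with genotype and sex, averaged over the 3 Msh3 genotypes, Gabra2 differed by -0.31 ± 0.09 (log2 fold change ± SE) between Q140 carriers and non-carriers, with an unadjusted p of 0.00148 that did not pass after adjustment over the 20010 genes (edgeR quasi-likelihood test, Benjamini-Hochberg adjusted p = 0.423). Within Msh3 genotypes the difference was -0.50 ± 0.16 for Q140 x Msh3-/- against Msh3-/- (adjusted p = 0.671), -0.21 ± 0.16 for Q140 x Msh3+/- against Msh3+/- (adjusted p = 0.833) and -0.23 ± 0.17 for Q140 against WT (adjusted p = 0.942). The differences between these Q140 effects were -0.27 ± 0.23 with Msh3-/- and 0.02 ± 0.23 with Msh3+/-, each relative to unaltered Msh3, and neither passed. Q140 x Msh3-/- mice differed from Q140 mice by -0.42 ± 0.16 (adjusted p = 0.432). Over all alternative settings, the adjusted p of the averaged Q140 difference lay between 0.19 and 0.506. Of the 4 Q140-labelled libraries with low Abhd1, 3 lay below the widest step of Gabra2; without the 4, a choice made after seeing the data, the averaged difference was -0.34 (adjusted p = 0.483) and that of Q140 x Msh3-/- against Msh3-/- was -0.66 (adjusted p = 0.926). With the plate column as a factor it was -0.34 (adjusted p = 0.998). Q140 x Msh3-/- and Msh3-/- mice sat mostly in different columns, so that fit separates column from genotype largely through the other groups. Most of the mice below the widest step of Gabra2 sat in columns 3 and 4, the others in columns 1 and 6. All of these columns also held mice above the step. The alternatives of Q140 x Msh3-/- against Msh3-/- ran between -0.66 and -0.34. Those of Q140 x Msh3-/- against Q140 ran between -0.57 and -0.35, and none passed. The part of allele or library differences in these values was not tested.

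Across all comparisons of Q140 with its matching genotype, none of the 34 tested members passed at an adjusted p under 0.05. In Q140 against WT mice, 0 of 34 members were called, beside 0.01% of all tested genes, and 0 members had an unadjusted p under 0.05, beside 5.48% of all genes. The 3 of smallest p were Gabrg1 at 0.09 ± 0.05 (adjusted p = 0.93), Grm2 at 0.15 ± 0.10 (adjusted p = 0.936) and Gabrb1 at 0.05 ± 0.03 (adjusted p = 0.942), as log2 fold change ± SE in edgeR's test. Of the 34, 18 lay above 0 and 16 below, with a median of 0.00, the same as over all genes to 2 decimals.

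In Q140 x Msh3+/- against Msh3+/- mice, 0 of 34 members were called, beside 0.015% of all genes, and 1 had an unadjusted p under 0.05, beside 6.2% of all genes. This was Gabra3 at -0.08 ± 0.04 (edgeR adjusted p = 0.78), followed by Grin2a at -0.06 ± 0.04 (adjusted p = 0.807) and Gria3 at -0.06 ± 0.04 (adjusted p = 0.809). In Q140 x Msh3-/- against Msh3-/- mice, 0 members were called, beside 0.0% of all genes, and 3 had an unadjusted p under 0.05, beside 6.8% of all genes. After Gabra2 came Gabbr2 at -0.09 ± 0.04 (adjusted p = 0.721) and Gabra4 at 0.10 ± 0.05 (adjusted p = 0.725).

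Averaged over the Msh3 genotypes, 24 carriers stand against 24 non-carriers, which gives the narrowest errors for Q140, with a median SE of 0.027 over the members. Again 0 of 34 members were called, beside 0.035% of all genes (3 higher, 4 lower), and Gabra2 was the 1 member with an unadjusted p under 0.05, beside 5.63% of all genes. Next in p were Grin2a at -0.04 ± 0.02 (edgeR adjusted p = 0.888) and Gabbr2 at -0.04 ± 0.02 (adjusted p = 0.915). For 32 of the 34 members the log2 fold change and 2 SE to either side stayed within a 1.2-fold change, the exceptions being Gabra2 and the sparsely counted Grin3b. For 33 of 34 the log2 fold change itself was smaller than 0.1 in size. DESeq2, limma with voom and limma on log2 FPKM also called 0 members in each of these 4 comparisons.

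**Figure D3:**
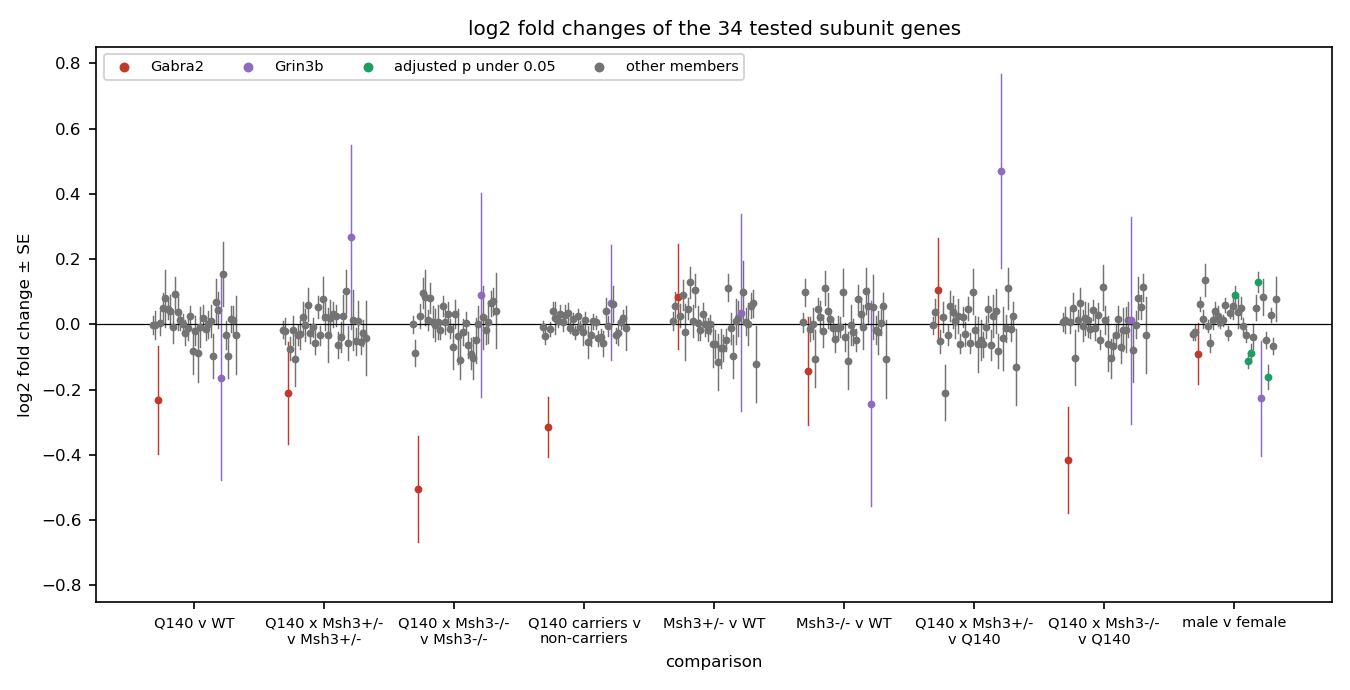
log2 fold changes (points) with their standard errors (lines) of the 34 tested members in 9 comparisons, each named with the group on top of the fold change first. Points in green passed at an adjusted p under 0.05, which occurred only between males and females. Gabra2 (red) was the lowest member in every comparison of Q140 with its matching genotype, in carriers against non-carriers and in Q140 x Msh3-/- against Q140.

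For the Msh3 labels, too, no member passed. In Msh3-/- against WT mice, 0 of 34 members were called, beside 0.035% of all genes, and 2 had an unadjusted p under 0.05, beside 5.73% of all genes. The members of smallest p were Gabbr2 at 0.10 ± 0.04 (edgeR adjusted p = 0.848), Gabrg1 at 0.11 ± 0.05 (adjusted p = 0.858) and Grin2a at 0.08 ± 0.04 (adjusted p = 0.87). In Msh3+/- against WT mice, 0 were called, beside 0.025% of all genes, and 3 had an unadjusted p under 0.05, beside 9.5% of all genes: Gabrb2 at 0.13 ± 0.05 (adjusted p = 0.384), Grin2a at 0.11 ± 0.04 (adjusted p = 0.392) and Gabrg1 at 0.10 ± 0.05 (adjusted p = 0.521). Both comparisons, and Q140 against WT, share the 7 WT mice, so the positive values of Gabrg1 in all 3 are not independent of each other.

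Among Q140 carriers, 0 members were called in Q140 x Msh3-/- against Q140 mice, beside 0.045% of all genes, and 2 with an unadjusted p under 0.05, beside 9.07% of all genes. Apart from Gabra2, the members of smallest p were Grm7, a presynaptic receptor of low glutamate affinity, at 0.11 ± 0.04 (edgeR adjusted p = 0.383) and Grik4 at -0.10 ± 0.06 (adjusted p = 0.608). In Q140 x Msh3+/- against Q140 mice, 0 were called, beside 0.02% of all genes, and 1 had an unadjusted p under 0.05, beside 5.14% of all genes. It was Gabra5, an alpha subunit of extrasynaptic receptors, at -0.21 ± 0.09 (adjusted p = 0.96), followed by Gria1 at -0.06 ± 0.03 and Grid1 at -0.06 ± 0.03 (adjusted p = 0.96 for each). Averaged over Q140 carriers and non-carriers, Msh3-/- against unaltered Msh3 gave 0 called members, beside 0.085% of all genes, and 3 with an unadjusted p under 0.05, beside 9.27% of all genes. These were Grm7 at 0.09 ± 0.03 (adjusted p = 0.337), Gabra2 at -0.28 ± 0.12 (adjusted p = 0.453) and Grik1 at 0.11 ± 0.05 (adjusted p = 0.502). In these averaged values too, 32 of 34 members stayed within a 1.2-fold change at 2 SE, again except Gabra2 and Grin3b. DESeq2 and limma also called 0 members in each of these 5 comparisons of Msh3 labels.

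No member passed the tests of whether the Q140 effect depended on Msh3. With Msh3-/-, 0 of 34 were called, beside 0.0% of all genes, and 0 had an unadjusted p under 0.05, beside 5.35% of all genes. The smallest p values belonged to Grin2b at -0.10 ± 0.07 (edgeR adjusted p = 0.949), Gabbr2 at -0.09 ± 0.06 (adjusted p = 0.953) and Gabrg1 at -0.09 ± 0.07 (adjusted p = 0.956). With Msh3+/-, 0 of 34 were called, beside 0.0% of all genes, and 0 had an unadjusted p under 0.05, beside 6.43% of all genes. There the members of smallest p were Gabrb1 at -0.08 ± 0.05 (adjusted p = 0.778), Grik1 at 0.16 ± 0.10 (adjusted p = 0.799) and Gabra3 at -0.08 ± 0.05 (adjusted p = 0.811). The difference between the Q140 effects of males and of females gave 0 called members, beside 0.0% of all genes, and 2 with an unadjusted p under 0.05, beside 4.48% of all genes. Its members of smallest p were Grik4 at -0.19 ± 0.06, Gabrg3 at -0.12 ± 0.06 and Grin3a at -0.10 ± 0.06 (adjusted p = 0.986 for each). In the comparisons of this paragraph DESeq2 and limma also called 0 members.

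Members passed the test only between male and female mice. Of 34 members, 5 were called (14.7%), 2 higher and 3 lower in males, beside 5.56% of all tested genes (2.73% higher and 2.83% lower in males), and 11 members had an unadjusted p under 0.05, beside 20.7% of all genes. The called members were 3 NMDA receptor genes, Grin2a, Grin2b and Grin3a, together with the metabotropic receptor gene Grm4 and the kainate receptor gene Grik2. All of these differences were small, between 0.09 and 0.16 in size on the log2 scale.

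Grin2a had 245, 283 and 314 CPM (lowest, median, highest) in the 24 males and 266, 307 and 336 CPM in the 24 females. It was lower in males by a log2 fold change of -0.11 ± 0.02 (edgeR adjusted p = 0.00199), the male mean lay below the female mean in 6 of 6 genotypes, and the ranges overlapped. Grm4, a presynaptic receptor that reduces transmitter release, had 24.5, 29.3 and 34.5 CPM in males and 27.9, 33.4 and 38.9 CPM in females. It was lower in males by -0.16 ± 0.04 (adjusted p = 0.00495), likewise in 6 of 6 genotypes, with overlapping ranges. The difference in means was largest in WT mice (28.4 CPM in males, 36.2 CPM in females) and smallest in Q140 mice (29.6 CPM in males, 29.96 CPM in females), a contrast between genotypes that was not tested by itself. Grin2b had 793, 861 and 916 CPM in males and 754, 909 and 1078 CPM in females. Its log2 fold change of -0.09 ± 0.03 passed narrowly (adjusted p = 0.0478), with the male mean lower in 5 of 6 genotypes, and the female values were spread more widely, with an SD of 76.3 CPM beside 39.8 CPM in males. The Grin2b call was lost in 8 of 12 alternatives, with adjusted p up to 0.0998.

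Grin3a, whose product lowers the calcium permeability of NMDA receptors, had 26.9, 32.3 and 37.2 CPM (lowest, median, highest) in males and 26.0, 30.4 and 33.1 CPM in females. It was higher in males by 0.13 ± 0.03 (edgeR adjusted p = 0.00749), with the male mean above the female mean in 6 of 6 genotypes. Grik2 had 47.6, 53.1 and 59.6 CPM in males and 44.3, 48.9 and 56.8 CPM in females. It was higher in males by 0.09 ± 0.02 (adjusted p = 0.0207), in 5 of 6 genotypes, with Q140 mice as the exception (50.3 CPM in males, 52.3 CPM in females). Leaving out 3 libraries that stand apart on a principal component, the second (1 Q140 x Msh3-/-, 1 Q140 and 1 Msh3+/- male), the Grik2 call was lost at 0.08 (adjusted p = 0.0629), while those of Grin2a, Grm4 and Grin3a held in all 12 alternatives. Ranges of males and females overlapped for both genes. Summed inhibitory neuron markers lay between 336 and 412 FPKM in males and between 335 and 412 FPKM in females, and summed oligodendrocyte markers between 179 and 327 FPKM in males and between 209 and 351 FPKM in females. Mean log2 CPM of the oligodendrocyte list was 7.30 in males and 7.43 in females, that of the choroid plexus list -0.63 in males and -0.17 in females, and that of the olfactory bulb list -0.14 in males and -0.38 in females. The part of these lists in the sex differences was not tested.

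**Figure D4:**
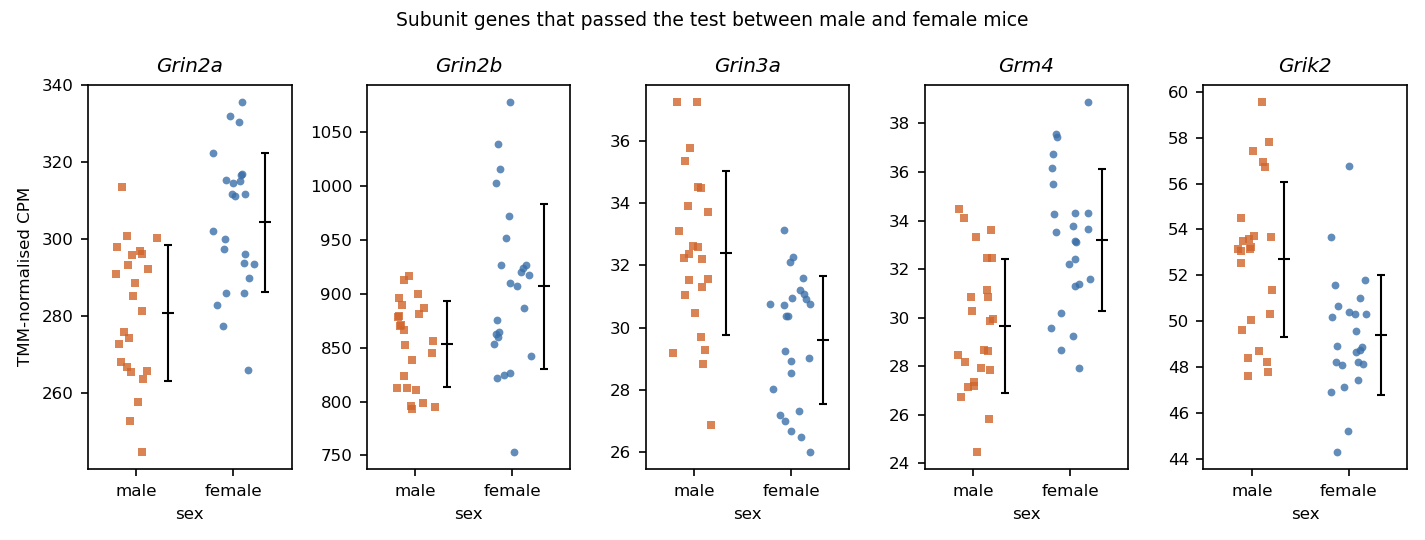
TMM-normalised CPM of the 5 members that passed the test between sexes, 1 point per mouse, 24 males (squares) left and 24 females (circles) right, with mean and SD beside them. The axes do not start at 0, and for each gene the male and female ranges overlap.

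A list of 44 auxiliary subunits and scaffold proteins that place receptors at synapses was counted beside the members. Between males and females 4 of 44 were called (9.09%), 1 higher and 3 lower in males, beside 5.56% of all tested genes (2.73% higher, 2.83% lower). Cacng2, the AMPA receptor auxiliary subunit stargazin, differed by -0.14 ± 0.03 (edgeR adjusted p = 0.00131), the scaffold gene Dlg4 (PSD-95) by -0.07 ± 0.02 (adjusted p = 0.015), Shank2 by -0.11 ± 0.03 (adjusted p = 0.0243) and Dlgap1 by 0.05 ± 0.01 (adjusted p = 0.031). In the comparisons of genotypes 0 of 44 were called, with edgeR adjusted p of 0.238 or more. An unadjusted p under 0.05 was held by 6 of the 44 (13.6%) in Q140 carriers against non-carriers, beside 5.63% of all genes. The count was also 6 of 44 in Msh3+/- against WT, beside 9.5% of all genes, and in Msh3-/- against unaltered Msh3, beside 9.27%, and it was between 0 and 3 in the other genotype comparisons. The smallest was that of Nptx2, a secreted pentraxin that gathers AMPA receptors, at -0.34 ± 0.08 in Q140 carriers against non-carriers (unadjusted p = 0.000224), followed there by Gsg1l at -0.08 ± 0.03 (adjusted p = 0.64). Nptx2 was at -0.36 ± 0.15 in Q140 against WT mice (adjusted p = 0.892) and at -0.39 ± 0.15 in Q140 x Msh3-/- against Msh3-/- mice (adjusted p = 0.685).

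The other list members of smallest p were as follows, as log2 fold changes ± SE. They were Slitrk3, an adhesion protein of inhibitory synapses, in Q140 against WT at 0.10 ± 0.04, Cacng3 (-0.08 ± 0.04) in Q140 x Msh3+/- against Msh3+/-, and Cnih2 in Q140 x Msh3-/- against Msh3-/- at -0.12 ± 0.05. For Msh3, they were Neto2, a kainate receptor auxiliary subunit, and Slitrk3 in Msh3+/- against WT (0.12 ± 0.04 and 0.11 ± 0.04), and Shisa6 and Neto2 in Msh3-/- against WT (0.18 ± 0.08 and 0.09 ± 0.04). Against Q140 mice they were Gphn (0.05 ± 0.03) and Kctd16 (0.09 ± 0.06) in Q140 x Msh3+/- and Homer1 (0.33 ± 0.15) and Homer3 (-0.11 ± 0.06) in Q140 x Msh3-/- mice. Averaged over Q140 status they were Neto2 (0.08 ± 0.03) and Homer3 (-0.09 ± 0.04) for Msh3-/- against unaltered Msh3. In the tests of a difference between Q140 effects they were Slitrk3 (-0.14 ± 0.06) and Gabarap (-0.08 ± 0.04) with Msh3+/-, Gabarap (-0.08 ± 0.04) and Gphn (0.08 ± 0.05) with Msh3-/-, and Grip1 (-0.11 ± 0.05) and Cacng5 (-0.19 ± 0.10) for males minus females. None of these passed after adjustment.

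Subunits that assemble or act together did not all vary together. For 8 pairs, log2 CPM was correlated over the 48 mice after the genotype and sex means had been taken out, with permutation tests of 100000 resamples and adjustment over the 8. Gria2 and Gria3 varied most closely, with r = 0.80 and rho = 0.81 (permutation p = 1e-05, the smallest the resamples can give, adjusted p = 8e-05), and r = 0.80 without the 2 mice farthest from the median. Grin2a and Grin2b had r = 0.58 and rho = 0.54 (permutation p = 2e-05 and 9e-05, adjusted 8e-05 and 0.00036), and r = 0.47 without the 2 farthest mice. Gabbr1 and Gabbr2, the partners of the GABA-B dimer, had r = 0.50 and rho = 0.50 (permutation p = 0.0003 and 0.0004, adjusted 0.0006 and 0.0008), and 0.42 without the 2 farthest mice. Gabra5 and Gabrg3, neighbours on chromosome 7, had r = 0.50 and rho = 0.53 (permutation p = 0.00028 and 0.00018, adjusted 0.0006 and 0.00048), and 0.42 without the 2. Gabra4 and Gabrd had r = 0.33 and rho = 0.34 (permutation p = 0.0221 and 0.0184, adjusted 0.0354 and 0.0294), and 0.31 without the 2. Within males and within females these 5 pairs kept a positive r, between 0.26 and 0.87. No share for other pairs of genes is given beside them, so these values do not set the 5 pairs apart.

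The other 3 pairs did not pass. Gria1 and Gria2 had r = -0.00 and rho = 0.02 (permutation p = 0.993 and 0.9), Grin1 and Grin2a r = 0.05 and rho = 0.04 (permutation p = 0.749 and 0.768), and Grik2 and Grik5 r = -0.20 and rho = -0.22 (permutation p = 0.169 and 0.136). Correlations of Gabra2 with Gabrb1 and with Gabrg1 had also been planned. They are not given and are not counted in the adjustment, since its values lie in separated ranges. That choice was made after the Gabra2 values had been seen.

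Part of the variation between mice ran along with markers of particular cells. Each of the 34 members was set against each of 13 marker lists, 442 relations in all. This comparison was added after the spread of the members had been seen. At an adjusted p under 0.05, 42 relations passed (permutation of 100000 resamples, Pearson). The share over all tested genes with the same lists is not given here, so the 42 do not set the members apart from other genes. The 13 relations of Gabra2 are counted among the 442, though its values lie in separated ranges, and 0 of them passed. The closest relations were with the oligodendrocyte list of 5 markers, Mbp, Mog and Mag among them. Grm8 had r = 0.75 and rho = 0.75 with it, Gabra5 r = 0.74 and rho = 0.72, and Grik3 r = 0.68 and rho = 0.69 (permutation p = 1e-05, the smallest possible, for each, adjusted 0.0011 for r and 0.00088 for rho). Without the 2 mice farthest from the median r was 0.74, 0.71 and 0.64 for these 3 genes. It was 0.80, 0.77 and 0.64 within males, 0.68, 0.71 and 0.72 within females, and 0.75, 0.72 and 0.71 without the same 3 libraries as above. Grm8, Gabra5 and Grik3 are among the 6 members of widest spread. Members also ran along with the list of striatal markers, which bear on the dissection. Grik3 had r = 0.57 and rho = 0.50 with it (permutation p = 4e-05 and 0.00043, adjusted 0.0028 and 0.014), with r = 0.48 without the 2 farthest mice, 0.56 within males and 0.59 within females. The striatal list also passed by r with Gria1 (0.55, adjusted permutation p = 0.0048), Gabra5 (0.46, adjusted 0.016), Grik4 (0.45, adjusted 0.025), Grm8 (0.43, adjusted 0.027) and Gabrd (-0.44, adjusted 0.025). By rho, of these only Grik3 and Gabrd (rho = -0.49, adjusted permutation p = 0.014) passed.

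With the inhibitory neuron list (Gad1, Gad2, Slc32a1, Lhx6, Pvalb, Sst and Vip), Grm4 had r = 0.61 and rho = 0.63 (permutation p = 2e-05 and 1e-05, adjusted 0.0018 and 0.00088), and Grik2 r = -0.58 and rho = -0.61 (permutation p = 1e-05 for each, adjusted 0.0011 and 0.00088). Without the 2 farthest mice r was 0.71 for Grm4 and -0.58 for Grik2, and it was 0.59 and -0.53 within males and 0.65 and -0.65 within females. Other members passed with this list too, among them Gria3 (r = -0.55 and rho = -0.52, adjusted permutation p = 0.0028 and 0.0088). Grin1 passed by r only (0.45, adjusted permutation p = 0.025). The list's mean log2 CPM was 6.36 in males and 6.36 in females. Members and lists were measured in the same libraries and share their depth and dissection, and no cause of these relations was tested. Gabra5 is among the members whose gene bodies overlap a gene on the opposite strand, so without a known strand setting its count is uncertain.

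**Figure D5:**
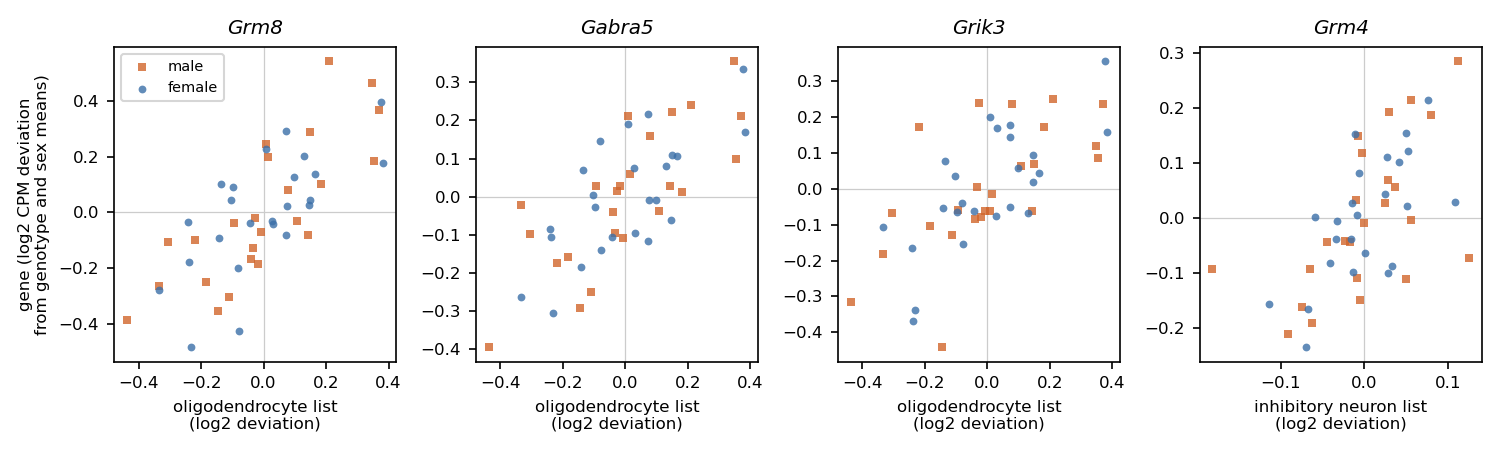
Deviation of log2 CPM from the genotype and sex means for Grm8, Gabra5 and Grik3 against that of the oligodendrocyte marker list, and for Grm4 against that of the inhibitory neuron list, 1 point per mouse (squares males, circles females). Points rise to the right in each panel (r = 0.75, 0.74, 0.68 and 0.61).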

How the data were processed

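RNA from the cerebral cortex of 48 mice was sequenced with the Illumina TruSeq stranded protocol, per the labels. The submitters' processing notes name the genome build GRCm38 and the tools HTSeq 0.12.3, SAMtools 1.10 and STAR 2.7.5c. The annotation release, the strand setting and any filters are not given in the sources used here. The authors deposited raw counts per gene for 48795 genes, with 35.95 to 64.48 M counts per library, and FPKM values. In 11208 genes with at least 200 counts, FPKM was the count times a single factor per gene and a single factor per library. The log residual was at most 5.06e-14. Those factors were not compared with gene lengths or library totals.

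Counts were fitted in R 4.3.3 with edgeR 4.0.16 to all 48 mice, with TMM factors, genotype and sex as terms, and for the last comparison a Q140-by-sex term. The low-count filter was filterByExpr with genotype as the grouping, and 20010 genes with 99.963% of the counts passed it. Each of 13 comparisons was tested with the quasi-likelihood F-test. Called means an adjusted p (Benjamini-Hochberg, over all 20010 genes) under 0.05. CPM values use TMM-scaled totals, and correlations use log2 CPM with a prior count of 1. The scripts were tested on simulated data. Gene positions come from GENCODE M21, where 48435 of the identifiers were found.

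The members, the list of auxiliary subunits and scaffolds and the marker lists were chosen with earlier results of these data known. In each comparison the named members are those called and, with fewer than 3 called, the 3 of smallest p. Values by mouse are given for members called anywhere, for the member of highest FPKM in each family and for Grin2a and Grin2b. Of the auxiliary list, called genes or else the 2 of smallest p are named; 1 gene that this rule would name is not reported here. Gabra2's ordered values and the correlations with marker lists were chosen after their values were seen, as were Grm8, Gabra5, Grik3, Grm4 and Grik2 in the latter.

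Alternatives, each set against the fit above, were DESeq2 1.42.0, limma 3.58.1 (voom with sample weights, or log2 FPKM plus 0.1 or plus 1), size factors by RLE, dropping the low-count filter or raising it to 1 CPM in 7 mice or more, a replicate block, the plate column as a factor, no sex term, only the groups compared, and fits without 3 libraries (those apart on principal component 2, or those with choroid plexus RNA). Added after seeing the data were a random block for the stem of the column name and a fit without the 4 Q140-labelled libraries of low Abhd1.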

Additional observations from a re-analysis of the deposited data

Results flagged for a closer look

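In groups of 7 to 9 mice, 8 of 204 combinations of member and genotype (3.9%) held a mouse whose value stood far from the others for the group's range. Chance alone flags about 1 in 20 such groups. Among Msh3+/- mice, male 1 had the highest Grm8 (19.18 CPM, next 14.6), Gabra5 (45.49 CPM, next 35.8) and Gabrg1 (20.18 CPM, next 16.9), male 2 had the lowest Grm3 (67.63 CPM, next 75.7), and female 2 had the lowest Grik3 (99.33 CPM, next 124). Gabrg1 was also high in Q140 x Msh3-/- female 1 (18.66 CPM, next 16.9). Grik5 was highest in Q140 male 3 (231.1 CPM, next 217), and Grm5 in WT male 1 (221.2 CPM, next 202).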

How the results depend on the processing

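In the 12 comparisons other than male against female, 0 members were called under every alternative. Calls over all genes moved more, between 1 and 3 for Q140 against WT (2 as reported), 1 and 5 for Q140 x Msh3+/- against Msh3+/- (3), 0 and 12 for Q140 x Msh3-/- against Msh3-/- (0), 4 and 13 for Q140 carriers against non-carriers (7), 1 and 12 for Msh3+/- against WT (5), 7 and 14 for Msh3-/- against WT (7), 3 and 5 for Q140 x Msh3+/- against Q140 (4), 6 and 12 for Q140 x Msh3-/- against Q140 (9), and 11 and 37 for Msh3-/- against unaltered Msh3 (17). Between males and females 752 to 1436 genes (1112) and 4 to 6 members (5) were called, with Gabra3 or Gria3 among the called members in some settings. In limma on log2 FPKM plus 0.1, which changes the unit, scaling and test together, 736 genes were higher and 409 lower in males, beside 546 higher and 566 lower as reported. With log2 FPKM in place of log2 CPM, r changed sign to 0.033 for Gria1 and Gria2 and to -0.002 for Grin1 and Grin2a, both near 0 in either form. Replicate numbers did not pair the mice: 115 same-numbered pairs of different groups had a mean correlation of deviations of -0.031, beside -0.023 for other pairs, and 8 of 48 mice correlated best with their own number. With the replicate block, 0 members were called in all of these comparisons, and for Q140 carriers against non-carriers 4 genes in place of 7; it was not run for male against female, since the block holds sex. Depth limits Grin3b, Grm6 and Gabra6, with at most 26, 2 and 6 reads in a library. The strand setting is unknown, and 17 of the 36 members overlap a gene on the opposite strand. For some, such as Gabra3, the overlapping genes were at 0.0 CPM. Others overlap a gene of higher level, among them Grin3b (mean 0.283 CPM) with Tmem259 (88.95 CPM) and Grin2d (19.42 CPM) with Kdelr1 (38.21 CPM). The part of such overlaps in the counts was not tested.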
